A study of Mus musculus with 3 samples.

Results

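The Gadd45 family and a set of DNA repair genes grouped as p53-regulated were examined on 3 one-colour Agilent whole mouse genome arrays. For Ddb2 that regulation is known from the human gene. The members are Gadd45a, Gadd45b and Gadd45g, the nucleotide excision repair genes Ddb2, Xpc and Ercc5, the translesion polymerase gene Polk, and Rrm2b, which encodes a subunit of ribonucleotide reductase. They were taken as every non-control probe whose gene name in the array files equals 1 of these 8 symbols, which gave 11 of 41174 probes. Gadd45b, Xpc and Polk had 2 probes each and the other genes 1.

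Total RNA came from mouse embryonic fibroblasts (MEF) labelled p53-null, from embryonic stem (ES) cells, and from MEF whose p53 status the series design gives as wild type. All of them carried a Nanog-GFP reporter, a fluorescent marker of the pluripotent state. The p53 allele, strain, embryonic age and passage are not given in the labels. Each group is 1 array, so no difference below has a replicate check or a p-value, and precision is limited by having 3 arrays in all. In bulk RNA, fewer cells with a transcript and less of it per cell cannot be told apart. The MEF array serves as control in both comparisons, that of p53-null MEF with MEF, which asks how fibroblasts without p53 differ before reprogramming to pluripotency, and that of ES cells with MEF.

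Gadd45 proteins are small nuclear proteins that bind cyclin B1 with Cdk1, the CDK inhibitor p21, the replication clamp PCNA and the kinase Map3k4, and through these they slow the cell cycle, take part in repair and start p38 and JNK signalling. Gadd45a is a classical p53 target, bound by p53 inside the gene. Gadd45b and Gadd45g are best known as genes induced by NF-kB, TGF-beta and cytokines. In nucleotide excision repair, Ddb2 and Xpc find the lesion and the endonuclease XPG, encoded by Ercc5, cuts beside it. The human DDB2 gene is activated by p53, whereas the mouse gene has been reported to lack that response. Polk reads past damaged bases during replication, and Rrm2b, also known as p53R2, supplies deoxynucleotides outside S phase.

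Levels are given as spot signal in the scanner's units. The 75th percentile of the signal, on which each array was scaled, was 1040 units for p53-null MEF, 834 for ES cells and 829 for MEF, so differences are taken from scaled values and not from the units. Errors are those of the scanner software's error model, which sets 10% for a bright spot and covers technical error of a spot only. Differences are on the log2 scale, and a probe counted as different where it was at least 2-fold apart.

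The array design shows where a measurement sits in its gene. The probes below are shown because their ends lie farther apart on the genome than the length of the probe, so that each bridges a splice junction and reads spliced RNA. The Ddb2 probe spans 184 bases at chr2:91013139-91013322 on the minus strand of mm8, the Ercc5 probe 832 bases at chr1:44122918-44123749 on the plus strand, and the dimmer Polk probe 4736 bases at chr13:97597536-97602271 on the minus strand. Each is 60 bases long.
Ddb2 A_52_P3825: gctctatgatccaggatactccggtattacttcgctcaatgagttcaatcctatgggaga
Ercc5 A_51_P368332: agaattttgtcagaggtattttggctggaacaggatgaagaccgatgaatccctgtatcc
Polk A_52_P460095: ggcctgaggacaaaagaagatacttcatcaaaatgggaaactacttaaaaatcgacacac

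The remaining probes each match 60 adjacent bases of mm8. They lie at chr6:66964960-66965019 for Gadd45a, chr10:80335274-80335333 and chr10:80334751-80334810 for Gadd45b, chr13:51860860-51860919 for Gadd45g, chr6:91455366-91455425 and chr6:91455610-91455669 for Xpc, chr13:97581996-97582055 for the brighter Polk probe and chr15:37868655-37868714 for Rrm2b. All were designed on a RefSeq transcript of the gene they are named for. Which part of the transcript each one matches was not determined, since no annotation of that build was used here.

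The fibroblast and ES cell labels were checked on marker genes. All 13 fibroblast markers were well above background on both MEF arrays, with a summed signal of 668317 units in p53-null MEF, 46723 in ES cells and 708354 in MEF. Between the MEF arrays, 5 of these were lower in p53-null MEF by 2-fold or more (0 higher), against 16.6% and 18.6% of all genes. By brightest probe they were Dcn (-2.53), Fn1 (-2.42, but 1.41 at another probe), Pdgfra (-2.04), Lum (-2.03) and Col3a1 (-1.05). The part of these genes in the differences of the members was not tested. The 11 ES cell markers on the array were higher by 2-fold or more in ES cells than in MEF, by a median log2 difference of 9.32, with lower bounds for the markers that were dim in MEF. Trp53, the gene for p53, had 56.3 units in p53-null MEF against 1304 in MEF and 4902 in ES cells at its brighter probe. The MEF arrays differed there by -4.87. The dimmer Trp53 probe gave 572 units for MEF, 304 for ES cells and 260 for p53-null MEF, all well above background. By that probe the MEF arrays differed by -1.46. ES cells lay below MEF by that probe (-0.92) and above MEF by the brighter one (1.90). The summed signal of 9 macrophage markers was 659 units in p53-null MEF, 704 in ES cells and 2555 in MEF, of which Lyz2 alone gave 126, 62.2 and 1980 units. That is its brighter probe, and the other Lyz2 probe differed from MEF by only -0.51 in p53-null MEF and -0.86 in ES cells. Of 8 macrophage markers measured between the MEF arrays, 3 were lower in p53-null MEF by 2-fold or more and 1 higher, against 16.6% and 18.6% of all genes. In p53-null MEF, Xist was higher by at least 479-fold and the Y chromosome gene Eif2s3y lower by at least 96.9-fold. The p53-null MEF array also lay on another slide, scanned separately from the slide that held the others. Slide, scan, these sex-linked signals and the p53 genotype cannot be told apart.

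**Figure D1:**
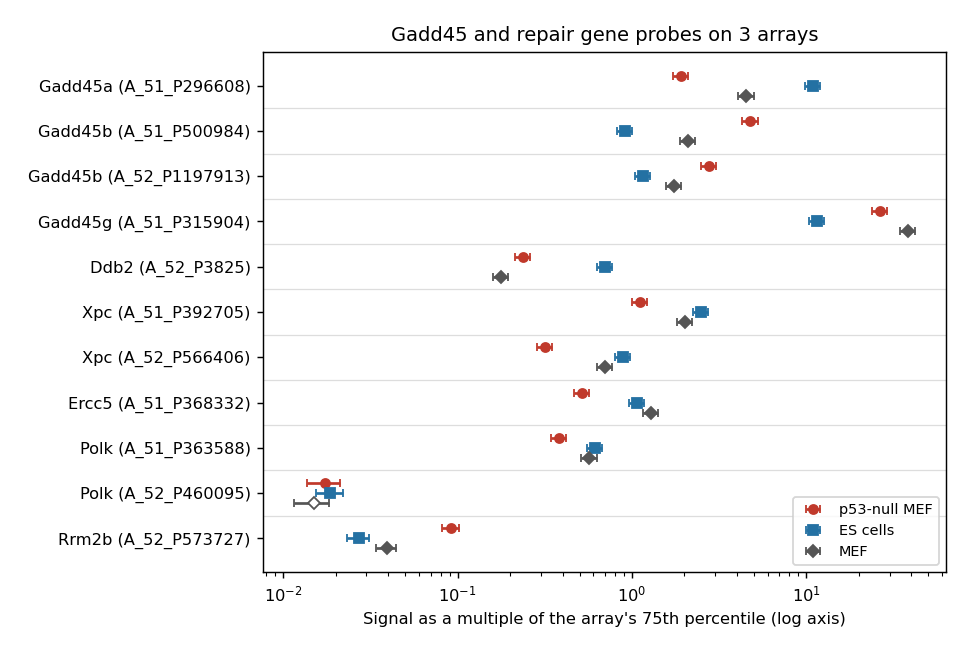
Signal of the 11 probes on each array as a multiple of that array's 75th percentile, on a log axis. Circles are p53-null MEF, squares ES cells and diamonds MEF, each 1 array; bars are the error model's error, and the open symbol marks a spot not well above background. The Gadd45a value was 1.90 in p53-null MEF, against 4.53 in MEF and 10.9 in ES cells.

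In p53-null MEF, Gadd45a and the endonuclease gene Ercc5 were lower than in MEF by more than 2-fold. Rrm2b and, at its brighter probe alone, Gadd45b were higher by more than 2-fold. Xpc was lower at both of its probes, past 2-fold at the dimmer one alone. Gadd45g and Polk were lower and Ddb2 was higher by less than 2-fold. With the brightest probe standing for each gene, 2 of the 8 genes were at least 2-fold lower and 2 at least 2-fold higher. Over 17398 genes measured in this comparison, 16.6% were at least 2-fold lower and 18.6% at least 2-fold higher. The median of the 8 genes was -0.55 against 0.03 for all genes. By probe, 3 of 11 were lower by 2-fold or more and 2 were higher, against 16.6% and 19% of 26532 measured probes.

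Gadd45a had 1981 ± 198 units in p53-null MEF, against 3756 ± 376 in MEF and 9067 ± 907 in ES cells (error model, 1 array each). It was highest in ES cells and lowest in p53-null MEF, and each step in that order was larger than 1.96 errors. The difference between p53-null MEF and MEF was -1.25 ± 0.20, or 2.38-fold lower. Among probes of like level (mean scaled log2 signal within 0.5), the share at least as far in the same direction was 5.68% for Gadd45a, 10.3% for Ercc5, 13.3% for the brighter Gadd45b probe and 21.0% for Rrm2b, where over all probes it was 12.0%, 11.2%, 15.4% and 14.8%. ES cells were 2.40-fold higher than MEF, by 1.26 ± 0.20.

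Gadd45b ran in the opposite order on these arrays. Its brighter probe had 4961 ± 496 units in p53-null MEF, against 1737 ± 174 in MEF and 755 ± 75.6 in ES cells. The other probe had 2864 ± 286, 1436 ± 144 and 958 ± 95.8 units in the same samples. Both probes were highest in p53-null MEF and lowest in ES cells, with neighbours more than 1.96 errors apart. The sizes differed between the probes. The brighter one was higher in p53-null MEF by 1.19 ± 0.20 and the other by 0.67 ± 0.20. Against MEF, ES cells were lower by a log2 difference of -1.21 ± 0.20 at the brighter probe and -0.59 ± 0.20 at the other. The gap of 0.52 between the probes is close to the median gap of 0.48 found in 3890 genes with 2 measured probes, but between ES cells and MEF, on 1 slide, the gap was 0.62 against a median of 0.33 in 3819 genes.

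Gadd45g had 27438 ± 2744 units in p53-null MEF, against 31516 ± 3152 in MEF and 9602 ± 960 in ES cells. The order was MEF, then p53-null MEF, then ES cells, with each step past 1.96 errors. The difference between the MEF arrays was -0.53 ± 0.20, with a range of 1.96 errors from -0.93 to -0.13, and -0.20 with no scaling, which is within 1.96 errors. ES cells were 3.30-fold lower than MEF, by -1.72 ± 0.20. In the main setting the 3 family members had 3 different orders over the same 3 arrays, but without scaling the Gadd45g values of the MEF arrays were not separated. With scaling on the E1A spike-in controls, Gadd45g was at 1.62 in p53-null MEF and -1.46 in ES cells, each against MEF. The brighter Gadd45b probe was then at 3.33 and -0.95, in the same order as Gadd45g. Gadd45a was at 0.90 and 1.53, with MEF lowest.

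The sequence before the start of each Gadd45 gene is given because these paralogs differed in their order in the main setting. The RefSeq promoter table (GRCm38.p6, 250 bases before to 50 after the start) held 6 windows for 5 of the 8 genes. The last 150 bases before the start are printed, with matches on either strand to CCAAT, or to TATAAA or the octamer ATGCAAAT, in capitals. They lie at chr6:67037408-67037557 on the minus strand, chr10:80929941-80930090 on the plus strand and chr13:51846525-51846674 on the plus strand.
Gadd45a promoter: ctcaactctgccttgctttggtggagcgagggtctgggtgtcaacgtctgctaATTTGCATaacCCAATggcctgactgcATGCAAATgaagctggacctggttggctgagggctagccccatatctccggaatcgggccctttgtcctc
Gadd45b promoter: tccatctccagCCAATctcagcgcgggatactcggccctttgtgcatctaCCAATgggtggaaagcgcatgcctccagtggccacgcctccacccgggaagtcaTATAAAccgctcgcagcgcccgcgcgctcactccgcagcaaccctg
Gadd45g promoter: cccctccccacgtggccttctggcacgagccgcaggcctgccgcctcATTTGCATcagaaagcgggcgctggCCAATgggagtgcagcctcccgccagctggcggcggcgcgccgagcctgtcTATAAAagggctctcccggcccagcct

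The Gadd45a window held the octamer at bases -97 to -90 and -70 to -63 before the start, with a CCAAT match at -86 to -82 between them and no TATAAA. The Gadd45g window held 1 octamer at -103 to -96, a CCAAT match at -78 to -74 and TATAAA at -27 to -22. Gadd45b had CCAAT at -139 to -135 and -100 to -96 and TATAAA at -46 to -41, with no octamer. Of 32851 promoter windows of this length in the table, 1.74% held the octamer, 37.4% CCAAT and 13.6% TATAAA. A match to a single decamer of the p53 consensus, of which a full element holds a pair, was found in the Gadd45a window at -40 to -31, overlapping none of the capitals, and in a Polk window, and 8.36% of all windows held it. The NF-kB consensus had no match in the 6 windows and was held by 8.46% of all. The Gadd45b and Gadd45g windows held CACGTG, held by 7.15% of all, and the Gadd45a and Gadd45b windows GGGCGG, held by 35.7%. These matches describe letters in the windows and not binding.

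Among the excision repair genes, the lesion recognition gene Xpc had 1151 ± 115 units in p53-null MEF, against 1659 ± 166 in MEF and 2080 ± 208 in ES cells at its brighter probe. The dimmer probe had 330 ± 33.2, 580 ± 58.1 and 738 ± 73.9 units. On both probes p53-null MEF was lowest, and ES cells and MEF were within 1.96 errors of each other. The difference between p53-null MEF and MEF was -0.86 ± 0.20 at the brighter probe and -1.14 ± 0.20 at the dimmer one, where the fold was 2.21. ES cells differed from MEF by 0.32 ± 0.20 and 0.34 ± 0.20.

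Ercc5 had 539 ± 54.0 units in p53-null MEF, against 1059 ± 106 in MEF and 889 ± 88.9 in ES cells. The difference from MEF was -1.30 ± 0.20, or 2.47-fold lower, and 11.2% of all measured probes were at least as much lower. ES cells and MEF differed by -0.26 ± 0.20, within 1.96 errors.

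Ddb2, the lesion recognition partner of Ddb1, had a low signal in both fibroblast samples. It had 247 ± 25.0 units in p53-null MEF, against 147 ± 14.9 in MEF and 581 ± 58.2 in ES cells. p53-null MEF was above MEF by 0.43 ± 0.21, with a range of 1.96 errors from 0.02 to 0.83. It was 0.16 with normexp and 0.33 with the 75th percentile taken over bright probes, both within 1.96 errors. ES cells were 3.94-fold higher than MEF, by 1.98 ± 0.21. Of all measured probes, 17.1% were at least as much higher there.

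The translesion polymerase gene Polk had 396 ± 39.8 units in p53-null MEF, against 472 ± 47.3 in MEF and 511 ± 51.1 in ES cells at its brighter probe. Its order was that of Xpc, with p53-null MEF lowest and ES cells and MEF within 1.96 errors. The difference between the MEF arrays was -0.58 ± 0.20 (-0.25 with no scaling, within 1.96 errors) and that between ES cells and MEF 0.10 ± 0.20. The junction probe printed above gave only 18.1, 15.5 and 12.4 units in p53-null MEF, ES cells and MEF, and in MEF it did not clear the background. The lowest signals well above background on those arrays were 16.0, 10.1 and 12.4 units, so this probe carries no usable difference.

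Rrm2b was also dim. It had 95.2 ± 10.3 units in p53-null MEF, against 32.5 ± 4.20 in MEF and 22.5 ± 3.24 in ES cells, all well above background. p53-null MEF was highest, and MEF and ES cells were within 1.96 errors. The difference between the MEF arrays was 1.22 ± 0.24, or 2.33-fold higher, and that between ES cells and MEF -0.54 ± 0.28. With another background correction (normexp) the difference between p53-null MEF and MEF was 0.35, under 2-fold.

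**Figure D2:**
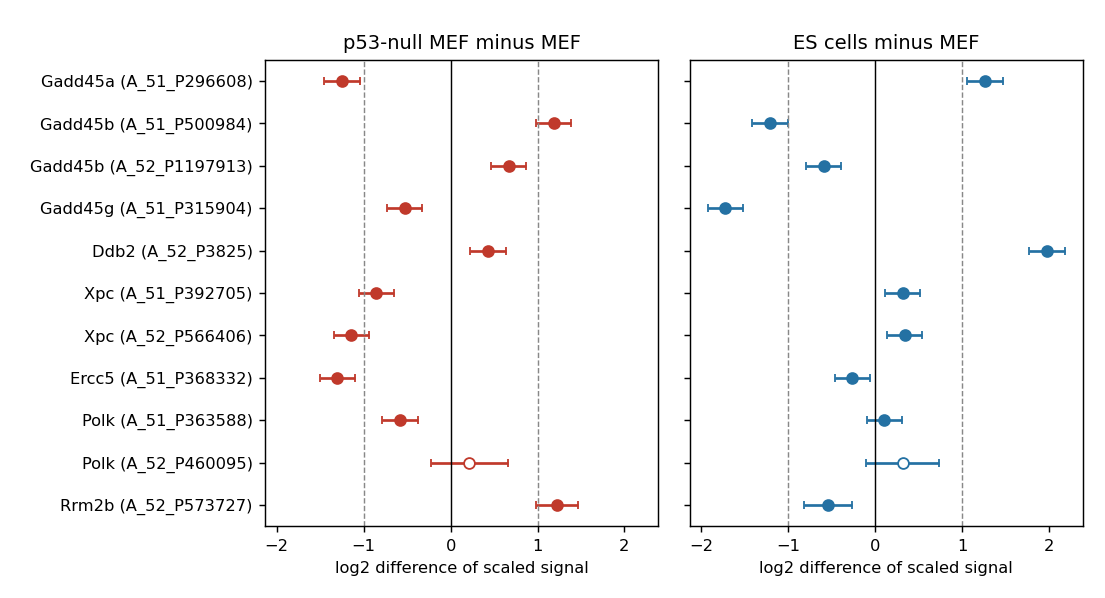
Log2 difference of each probe between p53-null MEF and MEF (left) and between ES cells and MEF (right), with the error model's error as bars and dashed lines at 2-fold. Open symbols rest on a spot not well above background. Gadd45a lies at -1.25 on the left and 1.26 on the right, and the brighter Gadd45b probe at 1.19 and -1.21.

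The differences moved with the base composition of the probes in both comparisons. Between p53-null MEF and MEF, the 367 measured probes with a GC content within 2 bases of that of the Rrm2b probe (23.3%) had a median difference of 0.53. The 5723 probes like the brighter Gadd45b probe (31.7%) had 0.42, and the 4877 like the dimmer Xpc probe (51.7%) had -0.38. With the median of such probes subtracted, a correction chosen after seeing the data, Rrm2b differed by 0.69, the brighter Gadd45b probe by 0.77 and the dimmer Xpc probe by -0.76, all under 2-fold. Gadd45a and Ercc5 differed by -1.40 and -1.30 and stayed past 2-fold. The probes of Gadd45b then differed by 0.77 and 0.70. Between ES cells and MEF, on 1 slide, medians also differed with GC content. They were 0.33 for probes like that of Rrm2b, 0.49 for the brighter Gadd45b probe and -0.02 for the dimmer Xpc probe. For probes like that of Gadd45a (40.0%) the median was 0.32. In this comparison the same correction put Gadd45a at 0.95, under 2-fold, and the brighter Gadd45b probe at -1.70.

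In ES cells, Gadd45a and Ddb2 were more than 2-fold higher than in MEF. Gadd45g and, at its brighter probe alone, Gadd45b were more than 2-fold lower, while Xpc, Ercc5, Polk and Rrm2b were within 2-fold. This is 2 of the 8 genes in each direction, where 27.1% of 18745 measured genes were at least 2-fold lower and 32.7% at least 2-fold higher. By probe it is 2 of 11 in each direction, against 26.3% and 33.6% of 28502 probes. The median of the 8 genes was -0.08 against 0.20 for all genes. Gadd45a and both Gadd45b probes lay on opposite sides of MEF in p53-null MEF and in ES cells with both differences past 1.96 errors. Xpc, the brighter Polk probe and Rrm2b also lay on opposite sides, with the ES cell difference within 1.96 errors. Both comparisons share the MEF array.

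**Figure D3:**
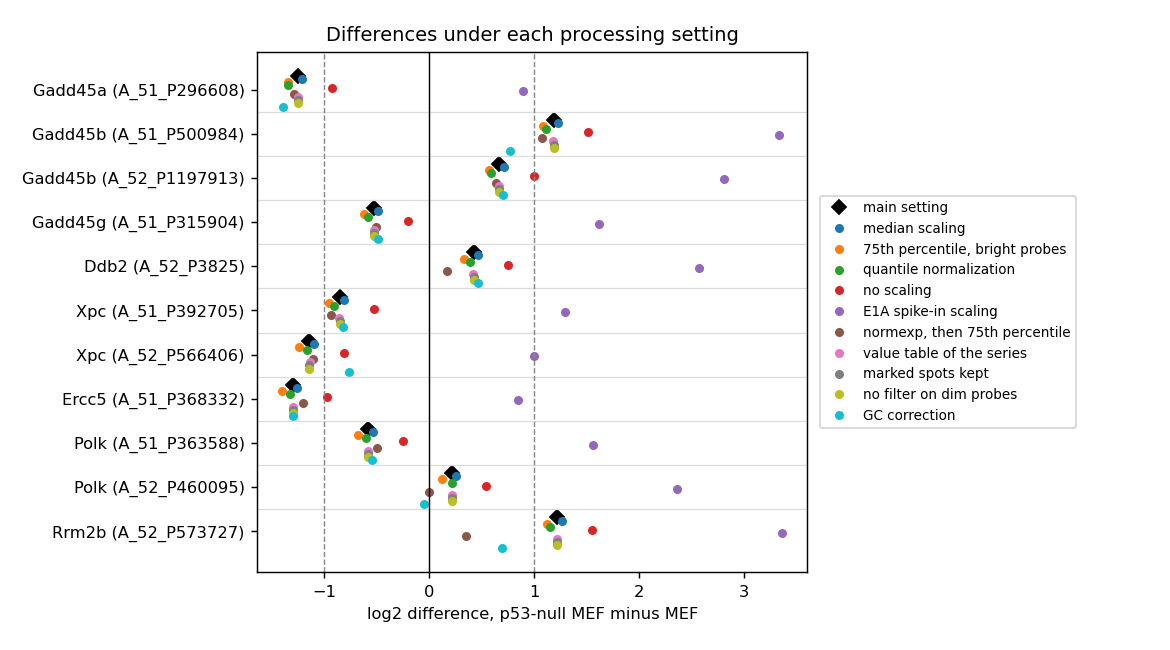
Log2 difference of each probe between p53-null MEF and MEF under the main setting (black diamonds) and the alternatives (coloured circles). The mean of all probes is not drawn, and dashed lines are at 2-fold. E1A spike-in scaling moved every probe up, with the all-gene median at 2.18, and Rrm2b lay at 0.35 with normexp and 0.69 with the GC correction.

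Scaling on the E1A spike-in controls moved the median of all genes between p53-null MEF and MEF from 0.03 to 2.18. Under that scaling every member was higher in p53-null MEF, with Gadd45a at 0.90 and Ercc5 at 0.84. Relative to the median of all genes they were at -1.28 and -1.33. Directions between these arrays are therefore relative to the bulk of genes. With no scaling, which put 71.1% of the 2-fold differences on the higher side against 52.8% in the main setting and 98.4% with spike-ins, Gadd45a was at -0.92 and Ercc5 at -0.97, both short of 2-fold.

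**Figure D4:**
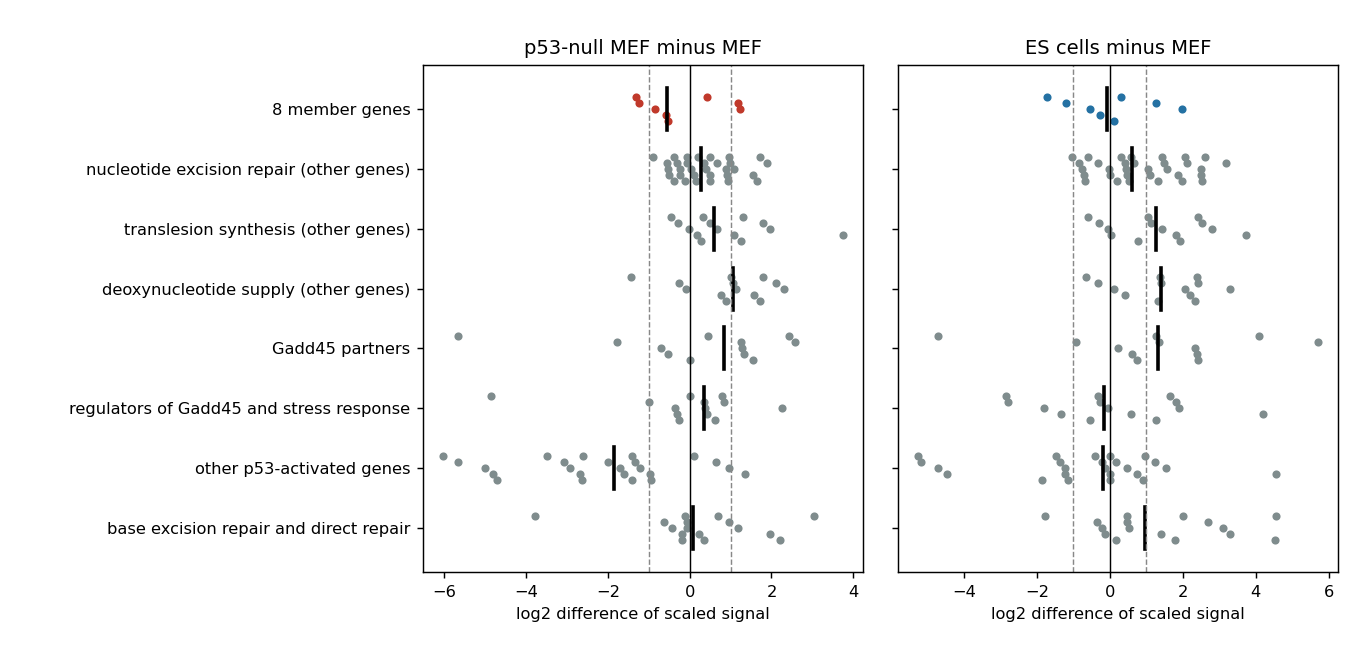
Log2 differences of the 8 member genes (coloured) and of the genes of 7 lists (grey), 1 point per gene, with black bars at the median of each row and dashed lines at 2-fold, for p53-null MEF against MEF (left) and ES cells against MEF (right). In p53-null MEF the other p53-activated genes had a median of -1.85 and the member genes -0.55.

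The other genes of these pathways were taken from 7 lists chosen with earlier results of these data known. Over all measured genes, 18.6% were at least 2-fold higher and 16.6% lower in p53-null MEF. In ES cells these shares were 32.7% and 27.1%, and the counts below are to be read beside them. Of 24 other genes that p53 activates, 18 were lower by 2-fold or more in p53-null MEF and 1 was at least 2-fold higher, with a median of -1.85. The CDK inhibitor gene Cdkn1a was at -5.66 ± 0.20, with 335 units against 13478, and Eda2r, of the TNF receptor family, was lower by at least 65.2-fold. The metabolic regulator Tigar was higher by 1.34 (0.75 at another probe) and the apoptosis gene Pmaip1 by 0.96. In ES cells the same list had a median of -0.18, with 10 lower and 3 higher. Scaling on spike-ins put its median in p53-null MEF at 0.30, or below the 2.18 of all genes.

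The rest of the nucleotide excision repair pathway had a median of 0.27 in p53-null MEF. Of its 32 genes, 5 were at least 2-fold higher and 0 lower, against 18.6% and 16.6% of all genes. Those named by rule were Rpa3, of the single-strand binding complex, at 1.90 and the ligase gene Lig1 at 1.71, both also used in replication. The helicase gene Ercc2, at 18.9 units against 28.2, was at -0.90 and Mnat1, of the kinase part of TFIIH, at -0.56 (0.45 at another probe). Ddb1, the partner of Ddb2, was at -0.24. In ES cells 15 of the 32 were at least 2-fold higher and 1 lower, with a median of 0.62.

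Other translesion synthesis genes had a median of 0.58 in p53-null MEF, with 6 of 14 at least 2-fold higher and 0 lower. The end-joining polymerase gene Polq was at 3.75 and Usp1, which removes ubiquitin from PCNA, at 1.97. The Y-family polymerase gene Poli was at -0.46 and Polm at -0.29. In ES cells 9 of the 14 were at least 2-fold higher and 0 lower, with a median of 1.28.

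Genes of deoxynucleotide supply other than Rrm2b had a median of 1.06 in p53-null MEF, with 8 of 13 at least 2-fold higher and 1 lower. The thymidine kinase gene Tk1 was at 2.11, while the mitochondrial kinase genes Tk2 and Dguok were at -1.43 and -0.25. Rrm1 and Rrm2, which encode the large subunit and the S phase small subunit of ribonucleotide reductase, were at 1.12 and 0.78. In ES cells, where Rrm2b was at -0.54, Rrm1 was at 1.32 and Rrm2 at 1.39, and 9 of the 13 were at least 2-fold higher and 0 lower, with a median of 1.39.

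Of 12 partners of Gadd45 proteins, 6 were higher by 2-fold or more in p53-null MEF and 2 lower, with a median of 0.85 (0.12 with the mean of all probes of a gene). The mitotic kinase pair of Ccnb1 at 2.59 and Cdk1 at 2.43 was higher, whereas Cdkn1a, also counted above, and Map2k7, the JNK kinase gene inhibited by Gadd45b, at -1.79 (-0.30 at another probe), were lower. Map3k4, the kinase that Gadd45 proteins activate, was at 0.44 (-0.32 at another probe). In ES cells 7 of the 12 were at least 2-fold higher and 1 lower, with a median of 1.31. All 11 proliferation markers were higher by 2-fold or more in p53-null MEF and in ES cells than in MEF, with medians of 2.68 and 3.96, and their summed signal was 187844, 242283 and 20098 units in p53-null MEF, ES cells and MEF. Their part in the differences of the members and of these lists was not tested.

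Among regulators of Gadd45 genes and of the stress response, 2 of 13 measured were lower by 2-fold or more in p53-null MEF and 1 higher, with a median of 0.34. Trp53 was at -4.87 (-1.46 at another probe) and Smad3, a TGF-beta signal carrier, at -1.01 (-0.13 at another), while Brca1, a repair gene whose protein acts on the Gadd45a promoter, was at 2.25 (0.87 at another) and Atf4, of the integrated stress response, at 0.84. In ES cells 4 of 14 were lower by 2-fold or more and 5 were higher, against 27.1% and 32.7% of all genes. Their median there was -0.15. Base excision and direct repair genes had a median of 0.08 in p53-null MEF. Of these 16 genes, 4 were at least 2-fold higher and 1 lower, against 18.6% and 16.6% of all genes. The glycosylase genes Neil3 and Mutyh were at 3.05 and 2.22, Mgmt, which removes alkyl groups from guanine, at -3.77 and the demethylase gene Alkbh2 at -0.62. In ES cells 8 of the 16 were at least 2-fold higher and 1 lower, with a median of 0.95.

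Genes with the most similar pair of differences were sought among 12356 genes well above background on all 3 arrays, by the distance over both log2 differences. Itgal was nearest to Gadd45a, at -1.22 and 1.27, Prr5l to Gadd45b, at 1.16 and -1.20, and Prrg2 to Gadd45g, at -0.54 and -1.72 (p53-null MEF and ES cells against MEF). Nearest to Ddb2 was Ubr7, to Xpc Psme3, to Ercc5 Pex19, to Polk Babam2 and to Rrm2b Mitf. A likeness over 3 arrays describes those arrays alone.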

How the data were processed

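The deposited scanner files hold Cy3 spot intensities of 3 arrays, 1 per group, written by the authors' scanner software (per the file headers, Feature Extraction 9.5.3.1 of Agilent). Its processed signal has the background subtracted and trends across the array removed, per the file headers, and is not scaled between arrays. The deposited value table of the series, whose unit and scale are not stated in it, held the same intensity for 45018 features, with column medians of 51.8, 50.0 and 43.2 (p53-null MEF, ES cells, MEF) and ratios to the processed signal between 0.995 and 1.005, so it is neither logged nor centred. It gives 1 signal per array and so has no direction.

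From the processed signal, the log2 was scaled by subtracting each array's 75th percentile (43379 non-control spots). Spots marked as uneven or outliers were left out (62, 176 and 192), and none was saturated. A value well above background on 1 array alone was compared, on the dim side, with the lowest signal well above background or the probe's own where that was higher, and is written "at least". The brightest probe stood for a gene. List genes were named through RefSeq (GRCm38.p6), by accession for 24375 probes, symbol for 6301 and unique synonym for 2426, and 8072 kept the file's name. Positions are those of the p53-null MEF file, on mm8; the other files cite mm7. Probe sequences come from the MEF file.

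The members and lists were chosen with earlier results of these data known. From each list the rule names the genes with the highest and lowest differences between p53-null MEF and MEF, at most 4 (2 in each direction); other list genes named were chosen after their values were seen. One gene that the rule names is not reported here. Alternatives were 4 other scalings, no scaling included, with spike-in scaling besides, normexp correction (limma 3.58.1, offset 50), the value table, marked spots kept, no filter on dim probes, the mean of all probes and a GC correction. Scripts used Python 3.11.15 and R 4.3.3 and were tested on simulated data.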

Additional observations from a re-analysis of the deposited data

How the results depend on the processing

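Of the 8 genes, 2 were at least 2-fold lower and 2 higher in p53-null MEF than in MEF, and likewise in ES cells. Median scaling, the 75th percentile over bright probes, quantile normalization, the value table, marked spots kept and no filter on dim probes left all 4 counts the same. The count higher in p53-null MEF was 6 with E1A spike-in scaling, under which 81.5% of all genes were higher, 1 with normexp, 1 with the mean of all probes and 0 with the GC correction. The count lower in p53-null MEF was 0 with spike-in scaling and 0 with no scaling. In ES cells, the count higher was 1 with the GC correction, and the count lower was 1 with spike-in scaling and 1 with the mean of all probes. Spike-in scaling reversed Gadd45a (0.90), Ercc5 (0.84), the dimmer Xpc probe (1.003) and the median of the other p53-activated genes (0.30) in p53-null MEF, all past 2-fold in the main setting, and turned the brighter Xpc probe (1.29), Gadd45g (1.62) and the brighter Polk probe (1.57), which were under it. It shifts all genes. Over all genes, normexp gave 10.9% lower and 12% higher in p53-null MEF, against 16.6% and 18.6%; no scaling gave 11% lower. No paired analysis was possible because each group is 1 array. Signal over background limits Rrm2b, with 22.5 to 95.2 units, and the dimmer Polk probe, with 12.4 to 18.1.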
